A study of Caenorhabditis elegans with 2 samples.

Results

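In starved first-stage larvae (L1) of the nematode Caenorhabditis elegans, 405 of the 30000 peaks called for the tagged homeodomain protein CEH-63 were among the 3000 of highest signal and lay on autosomes, outside coding genes and at a coding promoter. These members were chosen by their measured signal and by position. Each belonged to the 3000 highest-signal peaks of the list called on both replicates together (the pooled list), was not on the X chromosome, had its summit outside every protein-coding gene, and had a protein-coding transcript start within 1000 bp of the summit. Of the 3000, 524 were on X and 2476 on autosomes, and among the latter 944 summits lay in exons of coding genes, 680 in introns and 447 outside coding genes but farther from a start. Chromatin immunoprecipitation with sequencing (ChIP-seq) had been done on 2 biological replicates, which form 1 group. Both were whole animals, of both sexes pooled, of strain OP742, which carries the integrated transgene wgIs742 (C02F12.10, another name of ceh-63, joined to TY1, EGFP and 3xFLAG tags, and carrying unc-119(+)), on the mutant allele unc-119(tm4063). They were 6 hours old, hatched after bleaching and kept without food, and the immunoprecipitation used an antibody against GFP, per the sample descriptions, although the antibody field names ceh-63. Sonicated fragments ranged from 200 to 800 bp. The series holds 1 transgenic line, 1 stage and no untagged sample, and the control library was not analysed here. The sequencing depth is unknown, and a peak gives the place of enriched chromatin, not proof of binding by CEH-63.

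Coding promoters of C. elegans lie in a compact genome, where neighbouring genes often point away from each other and share a single intergenic stretch. Many messages are trans-spliced, so an annotated 5′ end can lie downstream of the place where transcription begins. CEH-63 is known from the DVC interneuron, and homeodomain proteins in general recognise AT-rich sites with a TAAT core. Promoters of broadly expressed genes are also known to appear in the ChIP-seq lists of many unrelated worm factors. Whether the members recur for other factors was not tested.

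The letters under the strongest summits were rich in G and C. The windows printed here come from the members with the highest signal and from the cell cycle list, all free of annotated exons, and are shown because the words that set the members apart can be read in them. Each spans 50 bases on either side of the summit, read along the nearest coding gene, from the RefSeq copy of WBcel235 (the same sequence as ce11). Capitals mark the word CGAGAG (reverse complement CTCTCG), the word GAGCGC (reverse complement GCGCTC) and the word ACACGCT (reverse complement AGCGTGT), which were picked after the data had been seen. The positions are chrIII:3867516-3867616, plus strand for rpl-3, chrIII:7854634-7854734, plus strand for rpl-35, chrIV:654887-654987, minus strand for rpl-15, chrIV:4750018-4750118, plus strand for the promoter between Y17G9B.5 and rpl-20, chrII:10563524-10563624, minus strand for cdc-48.1, chrII:4376961-4377061, minus strand for ntl-2 and chrII:14561892-14561992, minus strand for mog-4.
rpl-3: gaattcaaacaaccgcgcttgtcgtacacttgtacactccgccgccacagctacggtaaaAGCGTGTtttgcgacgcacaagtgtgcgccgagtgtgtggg
rpl-35: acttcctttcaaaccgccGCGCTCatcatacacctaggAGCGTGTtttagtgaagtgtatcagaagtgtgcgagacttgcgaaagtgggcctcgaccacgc
rpl-15: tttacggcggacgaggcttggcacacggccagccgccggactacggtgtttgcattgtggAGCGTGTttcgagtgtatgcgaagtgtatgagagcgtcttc
Y17G9B.5: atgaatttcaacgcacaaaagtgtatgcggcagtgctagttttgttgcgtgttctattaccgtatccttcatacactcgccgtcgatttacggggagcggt
cdc-48.1: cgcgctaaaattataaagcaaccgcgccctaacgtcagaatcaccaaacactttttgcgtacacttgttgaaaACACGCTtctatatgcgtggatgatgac
ntl-2: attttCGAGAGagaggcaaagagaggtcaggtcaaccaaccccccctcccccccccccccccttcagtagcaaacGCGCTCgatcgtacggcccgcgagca
mog-4: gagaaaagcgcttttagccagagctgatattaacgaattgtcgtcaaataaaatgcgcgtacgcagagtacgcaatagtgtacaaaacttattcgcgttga
The windows of rpl-3, rpl-35 and rpl-15, genes of the large ribosomal subunit, each hold AGCGTGT. That of cdc-48.1, which encodes an AAA ATPase, holds the other strand, ACACGCT. The ntl-2 window, at a subunit gene of the CCR4-NOT complex, holds CGAGAG and GCGCTC. The windows between Y17G9B.5 and rpl-20 and at mog-4, which encodes a splicing helicase, hold none of these words.

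A longer shared stretch surrounded CGAGAG in some members. Of all words of 8 bases, CCGAGAGG stood furthest above the lower-ranked promoter peaks (2522 peaks beyond pooled rank 3000 that met the same positional rule): 16 of 405 member windows held it (3.95%) against 6 (0.238%). Aligned on this word, the 16 windows shared a stretch of 19 bases in which each position had the same letter in at least 60% of them. The stretches printed next come from some of the member windows with no annotated exon there. Each has 8 bases on either side, is read along the element, and is shown so that the shared letters can be compared. Capitals mark letters that match the shared 19 bases. Positions are chrII:6913457-6913491, plus strand for cyn-10, chrIII:11290702-11290736, plus strand for mib-1, chrIII:5069008-5069042, minus strand for C45G9.2, chrV:904790-904824, minus strand for trm-2A, chrIV:10483916-10483950, minus strand for ced-5, chrIII:5349413-5349447, plus strand for thoc-5, chrIV:6323823-6323857, plus strand for sqd-1 and chrII:156061-156095, plus strand for mrpl-28.
cyn-10: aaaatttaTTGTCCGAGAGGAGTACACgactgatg
mib-1: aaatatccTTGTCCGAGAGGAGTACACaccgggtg
C45G9.2: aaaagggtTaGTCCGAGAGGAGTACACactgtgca
trm-2A: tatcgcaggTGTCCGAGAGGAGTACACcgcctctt
ced-5: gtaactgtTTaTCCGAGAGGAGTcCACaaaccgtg
thoc-5: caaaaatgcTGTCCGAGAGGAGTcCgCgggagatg
sqd-1: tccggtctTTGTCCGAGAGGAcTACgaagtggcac
mrpl-28: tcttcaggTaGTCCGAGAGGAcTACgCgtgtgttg
The stretches at cyn-10, which encodes a cyclophilin, and mib-1, a homolog of the mind bomb ubiquitin ligase gene, match all 19 letters. Those at C45G9.2 and trm-2A differ in 1 letter, that at ced-5, an engulfment gene, in 2, and those at thoc-5, sqd-1 and mrpl-28 in 3. The stretches at W02H5.19 and sco-1, not printed, also differ in 3 letters. In each of them 1 of the 3 lies within CCGAGAGG, which is whole in all the stretches shown.

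In all, 18 of 405 member windows held the 19 bases with at most 3 mismatches (4.44%, 95% Wilson interval 2.83 to 6.92), against 12 of 2522 lower-ranked promoter peaks (0.476%) and 58 of 17242 windows centred 150 bp upstream of every autosomal coding gene (0.336%). Since the element was defined on the 16 member windows with CCGAGAGG, these shares describe the list and test nothing. Of those 16, the windows at cnk-1, F13A7.14 and lin-59 did not hold the element with at most 3 mismatches. Among the 389 members without CCGAGAGG, 5 held it (1.29%). Windows 200 bp to either side of the member summits held it in 0 and 1 of 405 cases, and a count of 0 in 405 allows a share of up to 0.741%. The 18 members with the element, named here after their values were seen, included F56G4.6, W04C9.4, sqd-1, lrpr-1, cpn-3, W02H5.19 and sco-1 among the first 100 pooled ranks. The element was found in 7 of 50 members in ranks 1 to 100 (14%), in 8 of 83 in the next ranks to 479 (9.64%), in 2 of 69 from there to rank 1000 (2.90%) and in 1 of 203 from there to rank 3000 (0.493%). Thus 15 of the 18 were in the first 479 ranks, and 17 were in the top 3000 of both replicates.

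The signal of the members, the authors' own score per peak on a scale that is not stated, ran from 79.3 to 486, with a median of 96.1 and a median pooled rank of 1006. The lowest member had rank 2986, the first peak outside the limit that met the positional rule had rank 3003 and a signal of 79.2, and the largest distance to a start was 989 bp against 1006 bp for the next peak outside. The member of highest signal, 486, lay 288 bp upstream of rpl-3 and ranked 1 in the pooled list, 1 in replicate 1 and 3 in replicate 2. Its interval was 107 bp wide, whereas most pooled intervals were 370 bp. The next lay between F56G4.6 and wbp-4, a homolog of the WW domain-binding protein gene, with a signal of 423 and ranks of 13 and 1 in the replicates. The member between tasp-1, a homolog of the taspase gene, and K01G5.10 followed with a signal of 407 and ranks of 3 and 9. These 3 members held their place near the top of both replicate lists.

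The other members among the 20 of highest signal had pooled ranks from 8 to 43 and lay at genes of varied roles. That at cux-7, which encodes a CUT homeodomain protein, lay 30 bp from its start, in a gap of 164 bp to C07H6.2, and had ranks of 30 and 4 in the replicates. The member between vps-51, a vesicle traffic gene, and lin-35, the retinoblastoma-like gene of the worm, had ranks of 16 and 18. The member at bag-1, whose product regulates Hsp70 chaperones, had ranks of 27 and 21. Splicing genes were within reach of the members of pooled rank 28 (prp-19) and 37 (mog-4). The rank 28 summit lay 18 bp from K10D2.5 and 657 bp from prp-19, in a gap of 675 bp, with emb-1 also within reach. The members at K12H4.5, ntl-2, W04C9.4 and sqd-1 had pooled ranks of 27, 32, 33 and 38, and no replicate rank beyond 41. The member at tag-340 and nhl-2 had ranks of 34 and 54, and that at lrpr-1, 13 bp from the start, had ranks of 122 and 22. Among the 20, the lrpr-1 member was the only one outside the first 60 ranks of either replicate.

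At some of these summits a non-coding gene was nearer than the coding one. The member assigned to egg-5, with ranks of 10 and 11, lay 577 bp from that start and 40 bp from the start of sls-2.4, a spliced leader RNA gene annotated as an snRNA. The member assigned to ZK1248.17 lay 697 bp downstream of that start and 21 bp from sls-2.1, of the same family. The member assigned to F59C6.18 and nlp-4 lay 71 bp from a snoRNA gene, and that between tag-340 and nhl-2 lay inside an ncRNA gene. Over all members, a non-coding start was nearer in 77 (19%) against 12.9% of lower-ranked promoter peaks, and the summit lay inside a non-coding gene in 28 (6.91%) against 3.33%. The nearer gene was annotated as ncRNA in 51 of the 77, as snoRNA in 10, snRNA in 6, piRNA in 5, tRNA in 4 and miRNA in 1.

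The share of autosomal peaks that met the positional rule was highest at the top of the pooled list. It was 64.9% in ranks 1 to 100 (50 of 77 peaks), 27.8% in the next ranks to 479 (83 of 299), 16.2% from there to rank 1000 (69 of 425) and 12.1% from there to rank 3000 (203 of 1675). These 4 ranges are used throughout. It was 11.1% from there to rank 10000 and 11.4% from there to rank 30000. The 203 members of the last of these ranges thus came from ranks in which promoter peaks were about as frequent as in the lower list. Statistical support was weak as well, with 82 members (20.2%) at a q-value of 0.05 or less in the pooled list. That share was 5.82% for peaks far from a start, 5.15% for intronic peaks, 0.847% for exonic peaks, and 0 of 2522 for the lower-ranked promoter peaks.

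**Figure D1:**
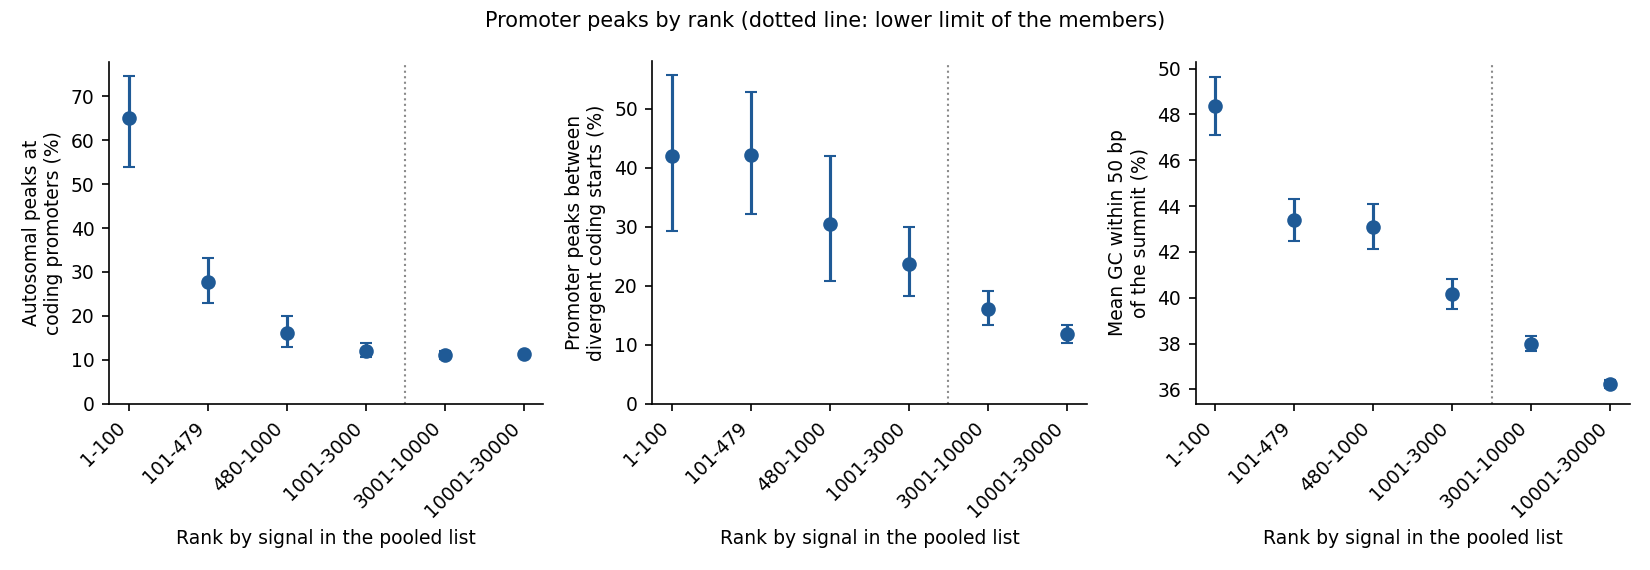
Autosomal promoter peaks by pooled rank: the promoter share of autosomal peaks, the divergent share and the mean GC percent within 50 bp of the summit, in 6 rank ranges, with 95% Wilson intervals for shares and the standard error for GC. The promoter share is 64.9% in ranks 1 to 100 and between 11.1% and 12.1% beyond rank 1000.

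Divergent promoters, where coding starts lay within 1000 bp on both sides of the summit and pointed away from it, held 125 of the 405 members (30.9%, interval 26.6 to 35.5). A further 272 had coding starts pointing away on a single side, and 8 had only starts that the summit lay downstream of. The divergent share was 12.9% (11.6 to 14.3) among lower-ranked promoter peaks and 11.3% over the 10708464 autosomal bases that meet the positional rule. Along the ranks the divergent share was 42%, 42.2%, 30.4% and 23.6% from the first range to the last within the top 3000. A summit near one start has more room for a second within reach, so the shares were also taken by distance. Within 200 bp of the nearest start 47.8% of members and 24.4% of lower-ranked peaks were divergent, from there to 500 bp 30% and 14%, and from there to 1000 bp 6.60% and 3.40%. Members had the higher share at each distance.

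Gaps between the starts of divergent pairs at members reached 1598 bp, with a median of 590 bp against 760 bp for lower-ranked peaks, and 51 of 125 (40.8%) were at most 500 bp against 24.6%. Gaps were counted per member, so some pairs, such as wapl-1 and htz-1 with a gap of 476 bp, were counted again for a neighbouring member. The summit lay in the middle 50% of the gap in 76 (60.8%) against 56%, and its median offset from the midpoint was 92.5 bp against 147 bp. That offset depends on the length of the gap. As a percent of the gap, the median distance of the summit from the nearer start was 31.8% against 27.6%. As examples picked after their values were seen, between mig-5, a dishevelled homolog, and cct-1, a chaperonin subunit gene, the gap was 420 bp, with the summit 167 bp from mig-5 and 253 bp from cct-1. Between ifet-1, a translational repressor gene, and rps-1 the gap was 768 bp. Of 2290 adjacent divergent coding pairs with a gap of at most 2000 bp, 115 (5.02%) held a member, with a median gap of 567 bp against 649.5 bp for all of them. For single promoters the whole intergenic stretch had a median length of 2089.5 bp against 2466 bp for lower-ranked peaks.

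Member summits lay close to coding starts, at a median distance of 276 bp (quartiles 128 and 511) against 390 bp for lower-ranked promoter peaks and 404 bp over the bases under the positional rule. Within 200 bp lay 159 members (39.3%, 34.6 to 44.1), against 29.6% and 27.3%. The nearest start pointed away from the summit, which was thus upstream of it, in 394 of 405 members. The median was 171 bp for divergent, 344.5 bp for single and 778 bp for downstream-only members. Per base available, members were 1.44 times as frequent as the average in the first 100 bp, 1.43 times in the next 100 bp, 1.21 times in the next and 1.30 times in the one after, which ends at 400 bp. Every later bin of 100 bp was between 0.488 and 0.722. The median distance did not fall steadily with signal, being 262.5 bp, 177 bp, 268 bp and 324 bp in the 4 rank ranges.

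**Figure D2:**
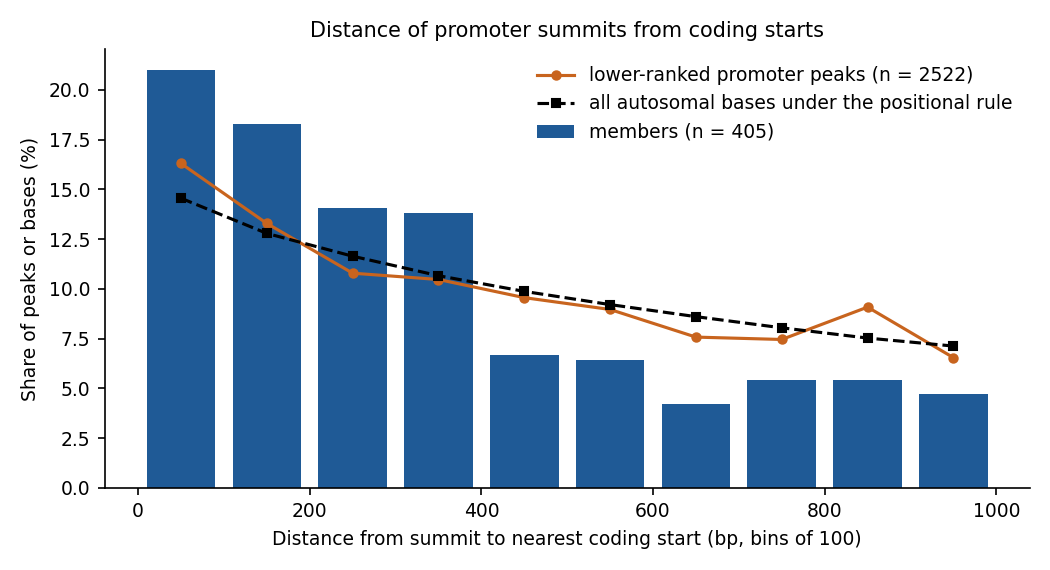
Distance from the summit to the nearest coding start in bins of 100 bp, as the percent of members, of lower-ranked promoter peaks and of autosomal bases under the positional rule. Members exceed the bases in each bin up to 400 bp and fall under them in each later bin.

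Ribosomal protein genes had a member more often than the genes of any other of the 34 lists counted. Of 81 autosomal ribosomal protein genes, 23 (28.4%, 19.7 to 39.0) had a member within 1000 bp of a start, against 537 of 17242 autosomal coding genes (3.11%). The 23 genes, 14 of the large and 9 of the small subunit, shared 22 peaks, since rpl-41.1 and rpl-41.2 were at the same one. Of the genes, 13 (56.5%) were at divergent promoters, against 46.4% of all genes with a member, 15 (65.2%) at peaks of the reproducible list, against 36.7%, 15 at peaks in the top 3000 of both replicates, and 18 had the summit upstream of their start, with a median position over the 23 of 275 bp upstream. The member of rpl-35, 450 bp upstream with a signal of 350, had ranks of 9 and 19 in the replicates. That of rpl-20, 290 bp upstream with a signal of 303, had ranks of 24 and 15. At the other end, picked after the values were seen, the shared rpl-41 peak had ranks of 4603 and 8856, and the rpl-36.A peak had ranks of 756 and 19899. The family thus ran from the strongest peaks to some that only the pooled list placed in the top 3000. In each replicate's own list under the same rule, 27.2% and 25.9% of ribosomal protein genes had a peak, against 2.87% and 3.25% of all genes. Among lower-ranked promoter peaks the family was also frequent, with 29.6% of its genes against 16.3% of all.

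Other genes of protein synthesis and folding had members as well. Translation factor genes had 8 of 37 (21.6%), of which eif-3.B, a subunit gene of initiation factor 3, had ranks of 171 and 178. The member of eef-1A.1, an elongation factor gene, had ranks of 3581 and 275, and that of eif-3.E had 5404 and 564. Of the 8, 2 were at reproducible peaks. The share by replicate 1's own list was 8.11%, well under that of the pooled list. Chaperone and heat shock genes had 7 of 63 (11.1%), 6 (85.7%) at divergent promoters and 5 (71.4%) reproducible, against 46.4% and 36.7% of all genes with a member. The cct-1 member had ranks of 38 and 102, the hsp-60 member, at a mitochondrial chaperonin gene, 71 and 139, and the hsp-1 member, at an Hsp70 gene, 81 and 177. The hsp-60 summit lay 570 bp from that start and nearer, at 243 bp, to Y22D7AL.10. Genes of tRNA synthetases had 3 of 32 (9.38%), with mars-1 at ranks 661 and 215, kars-1 at 1828 and 411, and nars-1 at 17474 and 1486. Mitochondrial ribosomal protein genes had 2 of 70 (2.86%), close to the background of all genes. They were mrpl-28, with ranks of 866 and 2626, and mrps-7, with ranks of 6386 and 2708.

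Chromatin genes of the synMuv class, which includes the retinoblastoma complex of the worm, and related chromatin genes had 10 of 66 (15.2%), 9 of them (90%) at divergent promoters and 6 (60%) reproducible. The member at lin-54, a DNA-binding subunit gene of that complex, was shared with rpl-12 and had ranks of 147 and 128. The member at lin-53, a histone-binding protein gene, had ranks of 73 and 253. Among all 537 genes with a member, 46.4% were at divergent promoters and 36.7% at reproducible peaks. Spliceosome and RNA-binding genes had 7 of 60 (11.7%), 4 reproducible, with snr-4, an Sm protein gene, at ranks 28 and 116. That summit lay inside an snRNA gene, and the replicate 2 summit of rank 116, 145 bp away, was also the match of a further member 585 bp upstream of snr-4. Cell cycle and replication genes had 5 of 67 (7.46%): the cdc-48.1 member had ranks of 40 and 53, the pcn-1 member, at the gene of the replication clamp PCNA, 86 and 158, and the rfc-4 member, at a clamp loader gene, 3581 and 275. The rfc-4 peak was also that of eef-1A.1. A peak in reach of genes of different lists was counted in each list, so the lists are not independent. General transcription genes had 5 of 71 (7.04%), among them mdt-19, a Mediator subunit gene, with ranks of 301 and 812, taf-4 with 458 and 563, and taf-6.2 with 2311 and 1627. The mdt-19 summit lay 805 bp from that start and nearer, at 214 bp, to apb-1.

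Respiratory chain genes had 5 of 38 (13.2%), with cox-5A at ranks 138 and 58 and atp-1, an ATP synthase subunit gene, at 196 and 274. The member of cox-5B had rank 229 in replicate 1 and no matching peak in replicate 2. Vesicle traffic genes had 11 of 111 (9.91%). Of these sec-61.G, a translocon subunit gene, had ranks of 37 and 78 and snx-13, a sorting nexin gene, 65 and 172. Actin and muscle genes had 4 of 39 (10.3%), led by cpn-3, a calponin gene, with ranks of 119 and 48. The pat-4 member had ranks of 4969 and 621, and the mlc-5 member 459 and 2550. Synaptic genes had 3 of 24 (12.5%): ida-1, of dense core vesicles, had ranks of 251 and 306, snb-1, the synaptobrevin gene, 4437 and 2236, and ric-19 8566 and 962. Of these 3, ida-1 was in the reproducible list. The intervals of these small lists were wide, from 4.34 to 31.0% for the synaptic genes.

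Large families that act in particular tissues or in responses to the environment had few members. Serpentine receptor genes, which encode chemoreceptors, had 6 of 1331 (0.451%, 0.207 to 0.980), none of them in the reproducible list. The leading ones were sre-23, with ranks of 5281 and 3481, srx-67, with 1543 and 8187, and srz-1, with 7103 and 1846. Nuclear hormone receptor genes had 3 of 247 (1.21%), namely nhr-142 with ranks of 4119 and 304, nhr-190 with 436 and 18589, and nhr-208 with 3918 and 2855. F-box genes had 3 of 305 (0.984%, fbxa-90, fbxb-85 and fbxa-136). The rest of these families were as sparse, with collagen and cuticle genes 2 of 183 (1.09%, col-38 with ranks of 1613 and 1624 and col-71 with 16822 and 807), C-type lectin genes 1 of 237 (0.422%, clec-126), and cytochrome P450 and UGT genes 1 of 130 (0.769%, ugt-62). The col-38 peak was also that of rpl-5. The clec-126 summit lay inside a non-coding gene, 54 bp from the start of a tRNA gene. Lower-ranked peaks were at 13.6% of the serpentine receptor genes against 16.3% of all genes. Neuropeptide genes had 3 of 108 (2.78%, nlp-4, nlp-82 with ranks of 855 and 1116, and nlp-18 with 5135 and 3257), histone genes 2 of 76 (2.63%, his-37 and the variant gene htz-1) and genes placed in the homeobox list 2 of 78 (2.56%, cux-7 and npax-3, the latter with ranks of 1475 and 959). Unlike the families above, these lists were near the 3.11% of all autosomal coding genes. Genes of starvation and insulin signalling had 1 of 59 (1.69%, fat-4, a desaturase gene). Of the other lists, 1 gene each had a member among 33 proteasome (rpn-3), 47 ubiquitin (ubc-6), 18 vacuolar ATPase (unc-32), 26 autophagy (lgg-1), 44 microtubule (tbb-2), 107 zinc finger, bHLH and bZIP (ztf-26) and 45 germline genes (mex-1). Their shares ran from 0.935% (zinc finger, bHLH and bZIP) to 5.56% (vacuolar ATPase), on either side of the 3.11% of all genes. The rpn-3 peak was also that of hsp-110. No member was at the 40 nuclear pore genes, the 54 major sperm protein genes or the 82 intestinal genes listed, which allows shares of up to 7.5%, 5.56% and 3.66%, nor at the 3 genes listed for DVC.

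**Figure D3:**
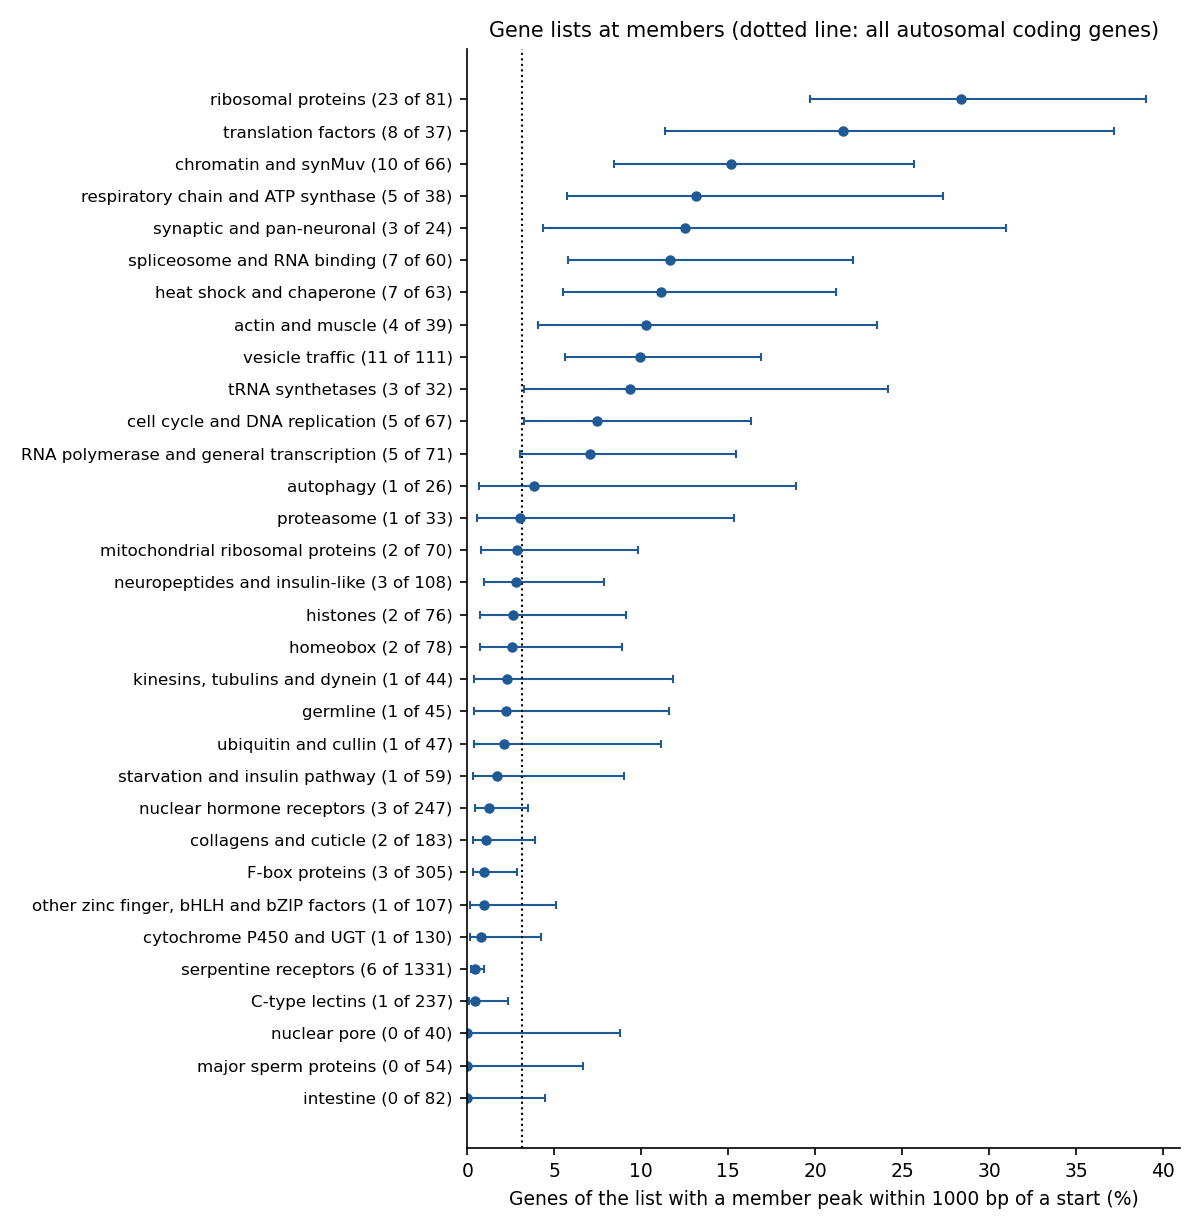
Percent of the autosomal genes of each list with a member peak within 1000 bp of a start, with 95% Wilson intervals, and the share over all autosomal coding genes as a line at 3.11%. The vacuolar ATPase and DVC lists, which have few genes, are not drawn. Ribosomal proteins are highest at 28.4%, and the serpentine receptors and C-type lectins lie under 0.5%.

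The members were in the top 3000 of both separate replicate lists more often than the other top peaks, and were matched at any rank about as often. A summit within 200 bp was counted as a match. Matches were not exclusive, and 10 members in replicate 1 and 6 in replicate 2 shared their matching peak with another member. In the top 3000 of both replicates were 176 of 405 members (43.5%, 38.7 to 48.3) against 28.8% of all top 3000 peaks, 31.3% of peaks far from a start, 25.7% of intronic and 21.3% of exonic peaks. All top 3000 peaks include the members. These shares were not matched for pooled rank, and more of the members came from the top ranks, where support was highest. Another 197 members (48.6%) were in the top 3000 of a single replicate and 32 (7.90%) of neither. The reproducible list, which the authors derived from both replicates with an irreproducibility threshold and which is the first 479 pooled ranks, held 133 members (32.8%, 28.4 to 37.6) against 16% of all top 3000 peaks. The replicate lists share their reads with the pooled list whose signal chose the members, so this is a description. At any rank, 384 members (94.8%) matched in both replicates, against 95.1% of all top 3000 peaks, 95.7% of those far from a start and 96.5% of intronic ones. Over the 384 the ranks in the replicates had a Spearman correlation of 0.355. The median rank was 1508.5 in replicate 1 and 989 in replicate 2, and 63.5% and 72.1% were in the respective top 3000.

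**Figure D4:**
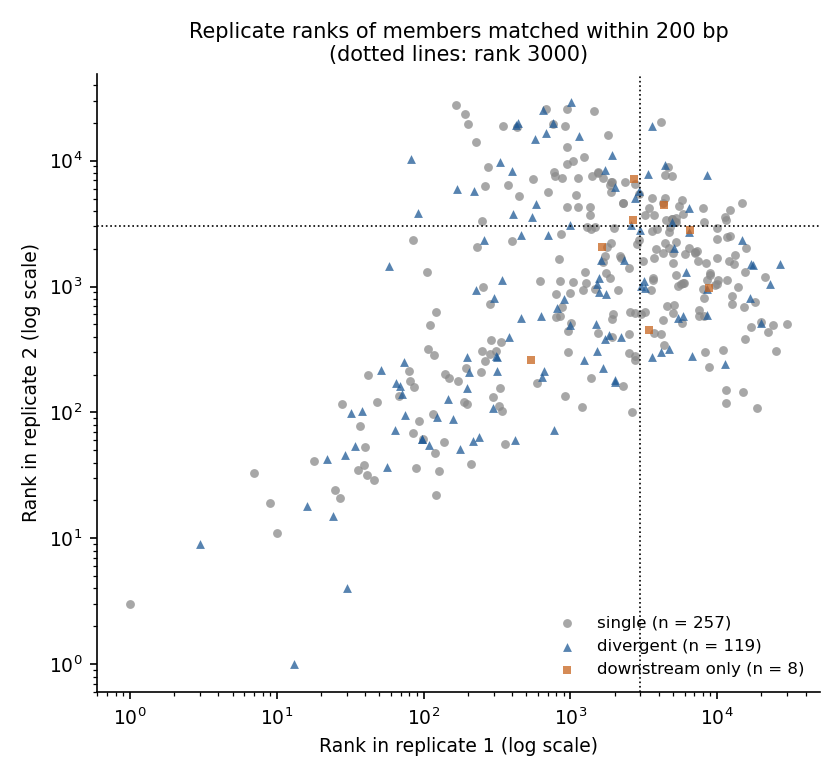
Rank in replicate 1 against rank in replicate 2, both on log axes, for the 384 members matched in both, with divergent and single promoters marked. The strongest members lie near the diagonal, and toward rank 3000 the points spread over both axes.

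Support followed the pooled rank. All 50 members in ranks 1 to 100 were in the top 3000 of both replicates, as were 85.5%, 47.8% and 10.8% in the 3 ranges that follow. Divergent members were in both in 53.6% and single ones in 39.3%, but more of the divergent members came from the top ranges. Within the rank ranges the order was mixed: both had 100% in the first, divergent and single members had 88.6% and 83.0% in the next, 33.3% and 55.3% in the one after, and 16.7% and 8.72% in the last. Since the reproducible list is the first 479 pooled ranks, its higher share of divergent members (44.8% of them against 27.9% of single ones) restates the divergent share by rank.

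The GC content within 50 bp of the summit was 42.3% ± 9.42 (SD, n = 405) for members and 36.7% ± 8.33 (SD, n = 2522) for lower-ranked promoter peaks. It was 33.8% in the windows 150 bp upstream of all 17242 genes. Top 3000 peaks far from starts had 40.8%, intronic ones 40.6% and exonic ones 44.2%, so the level of the members was near that of all top 3000 peaks, 42.2%. Within the members GC was 48.4%, 43.4%, 43.1% and 40.2% in the 4 rank ranges. The difference from lower-ranked peaks was present at each distance from the start, with 43.0% against 36.7% within 200 bp, 42% against 36.8% from there to 500 bp and 41.7% against 36.6% from there to 1000 bp. It was largest near the summit, where the profile of members reached 43.4% at the summit and lay between 34.3% and 39.1% beyond 100 bp. Divergent and single members had 42% and 42.6%. How GC content affects recovery in the libraries was not tested.

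**Figure D5:**
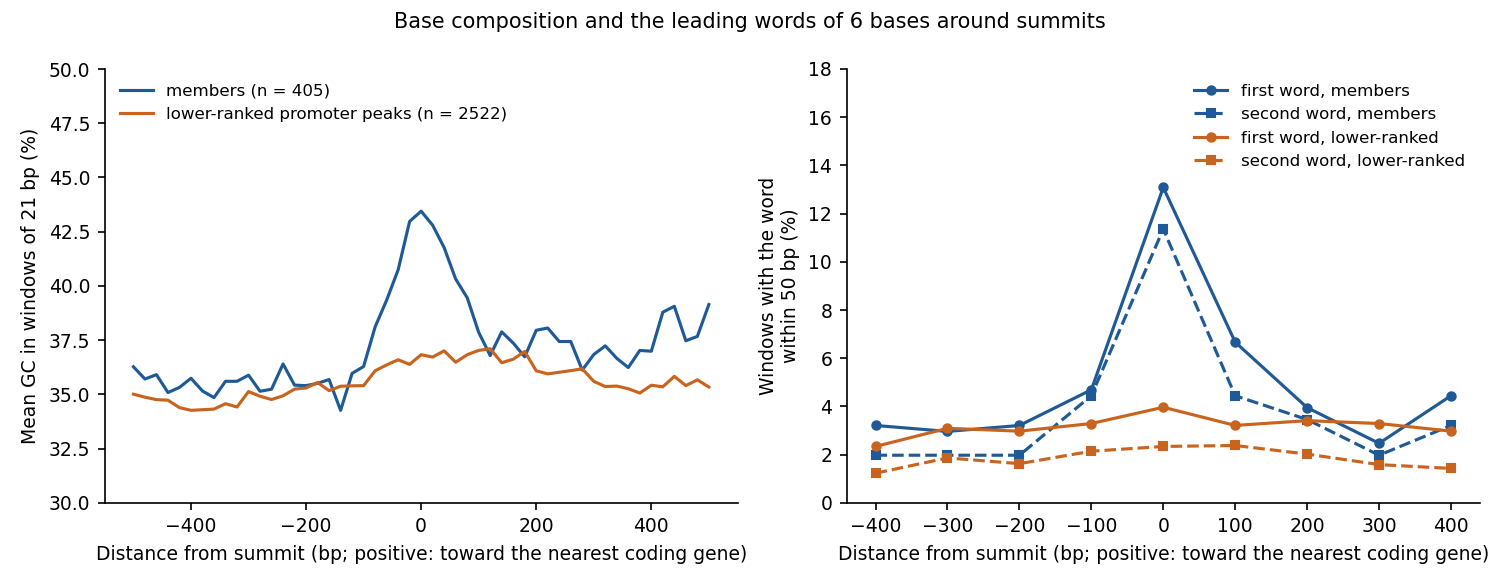
Base composition and short words around the summits: GC percent in steps of 20 bp, and the percent of windows with the words CGAGAG (first word) and GAGCGC (second word) at offsets of up to 400 bp, for members and lower-ranked promoter peaks. Members peak at the summit, at 43.4% GC, 13.1% for CGAGAG and 11.4% for GAGCGC.

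Among all words of 6 bases, counted on both strands, CGAGAG and GAGCGC stood furthest above the lower-ranked promoter peaks. CGAGAG was in 53 member windows (13.1%) against 3.97% of lower-ranked peaks, 6.49% of far intergenic peaks and 3.28% of all promoter windows. GAGCGC was in 46 (11.4%) against 2.34%, 1.34% and 1.93%. The word AGCGCG, which overlaps GAGCGC by 5 bases, followed with 9.38% of members against 2.02% of lower-ranked peaks. The word GACGCA was in 10.4% against 3.25%, and GCGAGA, which overlaps CGAGAG by 5 bases, in 10.6% against 3.61%. Furthest below were TAAAAA (19.8% against 29.7%) and AAAAAA (30.1% against 40.0%). Of the homeodomain cores, TAAT was in 52.1% of members against 63.7% of lower-ranked peaks and 69.0% of all promoter windows, and the palindrome TAATTA was in 17 members (4.20%) against 4.72% and 6.04%. Far intergenic peaks were near the members, at 52.3% for TAAT and 30.4% for AAAAAA, and had TAATTA in 6.04%. These AT-rich words were not counted within bands of GC content.

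Either of the leading words was in 90 members (22.2%), in 32.3% of the reproducible members and in 17.3% of the others. By rank, CGAGAG was in 22%, 18.1%, 11.6% and 9.36% of members from the first range to the last, and GAGCGC in 18%, 18.1%, 15.9% and 5.42%. Away from the summit, at 100 to 400 bp, CGAGAG was in 2.47 to 6.67% of member windows and GAGCGC in 1.98 to 4.44%. Because both words are rich in G and C, they were also counted within bands of GC content. Both had been picked by their counts in these same windows, so their shares by rank, offset or GC describe the list and test nothing. In windows of 45 to 55% GC, either word was in 40.3% of 129 members against 13.4% of 357 lower-ranked peaks, and from 35 to 45% GC in 16.8% of 149 against 6.01% of 915. Above 55% GC it was in 37.5% of 32 against 20.6% of 63, where GAGCGC alone was in 18.8% against 15.9%. Under 35% GC the order was the other way, with 1 of 95 members (1.05%) against 2.70%. Away from autosomal promoters the words differed. GAGCGC was in none of 84 reproducible peaks far from starts and in none of 103 reproducible peaks on X, which allows up to 3.57% and 2.91%, whereas CGAGAG was in 9 (10.7%) and 7 (6.80%) of them.

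The word ACACGCT (reverse complement AGCGTGT) was tied to the very strongest members. It was in 10 of 50 windows in ranks 1 to 100 (20%, 11.2 to 33.0) and in 0 of 83, 2 of 69 and 3 of 203 in the 3 ranges that follow. Over all members it was in 15 (3.70%), against 0.609% of all promoter windows and 3 of 103 reproducible peaks on X (2.91%). Of the 15, 10 were reproducible, 7 divergent and 3 at ribosomal protein genes, namely rpl-3, rpl-35 and rpl-15. The others included tasp-1, F56G4.6, cdc-48.1, cpn-3 and cox-5A, and this word was singled out after its counts were seen. F56G4.6 and cpn-3 also held the element of 19 bases, and their pooled ranks were 3 and 57.

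The members were spread over all autosomes with more on some than the available promoter bases would give. Chromosome III held 85 members (21%) against 13.6% of bases under the positional rule, chromosome I 92 (22.7%) against 15.1%, and chromosome V 73 (18%) against 31.1%. Chromosomes II and IV held 19.8% and 18.5% against 20% and 20.2%. The lower-ranked promoter peaks were nearer to the bases, with 16.3%, 15.3% and 29.1% on III, I and V. The central part of a chromosome, from 25 to 75% of its length, held 236 members (58.3%) against 53.5% of lower-ranked peaks and 52.3% of bases. In reach of a member were 1 coding gene in 258 cases, 2 in 134 and 3 in 13, and 27 genes had 2 or more members.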

How the data were processed

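Whole-animal ChIP-seq peak lists of 2 biological replicates were used: one list per replicate, one called on both together with a control, and a reproducible list with an irreproducibility threshold of unstated value, per the deposited notes. No caller, aligner or read depth was stated in those sources, and coordinates are ce11 per the labels. The signal score in the deposited lists is the authors' own value on an unstated scale and served only to rank peaks within a list. The deposited −log10 q-values were converted to q. Nothing else was normalized.

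The summit was taken as the peak point of each interval (for intervals of fixed width, their centre). Protein-coding and non-coding genes came from Ensembl release 115 (WBcel235) and sequence from the RefSeq copy of that build. Words were searched on both strands within 50 bp of the summit. Shares carry 95% Wilson intervals, which cover only the counting of peaks; neighbouring peaks and genes that share one are not independent, and a count of 0 allows 3 counts of the total. Python 3.11.15, numpy 2.4.6, pandas 2.3.3 and scipy 1.17.1 were used, and the geometry, word and matching steps were checked on simulated data. With 1 group no test was run.

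The members and the 34 gene lists were chosen with earlier results of these data known. Named genes are the nearest coding genes of the 20 members of highest signal, with those across a divergent promoter, and up to 3 genes of highest signal from each list with 2 or more genes at a member; other genes named were picked after their values were seen or make up small counts. Alternatives varied the rank limit, the distance limit, the starts used, the matching distance, the window and the list.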

Additional observations from a re-analysis of the deposited data

How the results depend on the processing

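With the top 1000 pooled peaks or the reproducible list only, the members numbered 202 and 133, the divergent share was 38.1% and 42.1%, the share within 200 bp of a start 45.5% and 46.6%, the median distance 228 and 217 bp, the share in the top 3000 of both replicates 76.2% and 91.0%, GC 44.5% and 45.3%, and ribosomal protein genes with a member 18.5% in each. With the top 1000, 65.8% were in the reproducible list. With starts within 500 bp, the divergent share was 25.4%, that within 200 bp 53.2%, the median distance 189 bp and the reproducible share 37.8%. With starts within 2000 bp, 28.8% lay within 200 bp and the median was 409.5 bp. Matching summits within 100 bp gave 38.5% in both replicates, and a window of 100 bp either side of the summit gave TAATTA in 8.89%.

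From the list of either replicate alone, the members numbered 368 to 420, with a divergent share of 27.9 to 30.4%, 39.1 to 39.3% within 200 bp, a median distance of 270 to 276 bp, GC of 40.1 to 43.0%, 25.9 to 27.2% of ribosomal protein genes, TAATTA in 4.35 to 5.48%, CGAGAG in 11.7 to 11.9%, GAGCGC in 8.57 to 9.78% and ACACGCT in 2.86 to 4.35%. The lists of single replicates and of reproducible peaks for the words were added after seeing the data. Of 72 alternatives, 43 were labelled as within the spread set for the value and 29 as beyond it. For the member count of 405 that spread was wide: 299 and 552 counted as within it, and 202 and 133 as moved. For the median distance and GC, the spread was the SD of the values from the replicate lists, 4.24 bp and 2.00 points. Those lists were also among the alternatives, and a median of 270 bp against 276 bp counted as moved, so the split is a rough guide. Replicate support was not run for single-replicate lists, nor the reproducible share within the reproducible list. No paired analysis was possible because the series has 1 group. The unknown depth, the weak q-values of most members and the nearness of other genes limit what a single peak shows.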

Other observations

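Places matching the 19 bases of the shared element with at most 3 mismatches were also counted over the whole genome. There were 282 on autosomes under the positional rule, of which 22 (7.80%) lay within 50 bp of a summit among the pooled top 3000, 959 elsewhere on autosomes, of which 12 (1.25%) did, and 15 on X, of which 0 did. Exact copies numbered 25, 40 and 2 in these places, of which 7 (28%), 2 (5%) and 0 were near such a summit. Most copies of the element therefore had no top peak. In the lists of each replicate alone, 15 of 368 (4.08%) and 22 of 420 (5.24%) promoter peaks held it. The 19 bases were derived from member windows, and the places counted include such windows. These shares therefore describe the list and test nothing.

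The reference sequence marks repeats in lower case, and the windows of members were less marked than those of other promoters: 26.9% ± 24.4 of bases (SD, n = 405) against 33.3% ± 26.9 (SD, n = 2522) for lower-ranked promoter peaks and 36.9% for all promoter windows. Top 3000 peaks far from starts were also low, at 24.4%. Within 500 bp upstream of ribosomal protein genes, CGAGAG was present in 3 of 23 genes with a member (13.0%) and 12 of 58 without (20.7%). GAGCGC was in 4 (17.4%) and 7 (12.1%) of these and ACACGCT in 3 (13.0%) and 1 (1.72%). Of 514 other genes with a member, 26.5% held CGAGAG, against 14% of all genes. All 3 words were picked from member windows, which these upstream stretches can include. A higher share in genes with a member is therefore partly built in, and these shares test nothing.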
